A study of Sus scrofa with 21 samples.

Results

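Gene expression in uninjured pig hearts was compared between postnatal day 14 and postnatal day 7, the interval that makes up the second week of life. The members are the 6 libraries labelled naive and collected at these ages, 3 on day 14 and 3 on day 7, of 21 libraries in the series. The comparison covered the 15359 genes, of 25880 in the table, that passed a filter on low counts. Naive hearts of day 1 (n = 2), day 3 (n = 2) and day 28 (n = 3) were also used. So were hearts infarcted on day 1 (MI) by a lasting tie of the left descending coronary artery, collected on day 7 (n = 3), day 14 (n = 3) or day 28 (n = 2). Each library came from the total RNA of 1 pig, taken from the border of the ischaemic area in MI hearts and from the matching place in naive hearts. The labels call the uninjured pigs naive, whereas the treatment protocol describes age-matched pigs that were operated on without the ligation, and the labels leave it unclear which of these holds. All pigs came from 1 commercial farm, were reared in an incubator on bovine colostrum and milk, and received iron on day 7, the day on which the younger group was collected. The labels name no transgene or drug. They also give no sex, litter, batch or date, so that effects of these and of age cannot be told apart.

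In the newborn pig, heart muscle cells still enter the cell cycle for a short time and then leave it, and the loss of this capacity goes along with the loss of repair by new muscle. Replication genes (the MCM helicase, the PCNA clamp, ribonucleotide reductase) serve S phase, and kinesins, cyclin B and the spindle checkpoint serve mitosis. In the same weeks the heart grows by enlargement of its muscle cells, exchanges fetal for adult isoforms of the contractile proteins and turns from glucose and lactate to fatty acids. Because the samples are bulk tissue, fewer cells of a type and less RNA per cell cannot be told apart, and cycling fibroblasts or vessel cells count as much as cycling muscle cells.

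The lists of replication and of mitosis genes held more members that separated the ages than any other of the 52 lists examined. The promoters of their members with the smallest p are therefore shown, 3 from replication and 2 from mitosis. In mammals, genes of S phase are controlled by E2F factors, and genes of mitosis by complexes at CHR and CCAAT elements. Each sequence is the 200 bases before the annotated gene start (RefSeq, Sscrofa11.1), 5′ to 3′, with matches to the E2F motif (GCGGGAA), the CHR motif (TTTGAA) or CCAAT in capitals on either strand.
RRM1, chr9:6065212-6065411, minus strand: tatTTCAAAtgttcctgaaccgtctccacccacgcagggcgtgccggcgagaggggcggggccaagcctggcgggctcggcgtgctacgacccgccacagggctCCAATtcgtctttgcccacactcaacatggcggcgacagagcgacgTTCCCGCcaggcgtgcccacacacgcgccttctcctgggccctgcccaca
ORC6, chr6:37943951-37944150, minus strand: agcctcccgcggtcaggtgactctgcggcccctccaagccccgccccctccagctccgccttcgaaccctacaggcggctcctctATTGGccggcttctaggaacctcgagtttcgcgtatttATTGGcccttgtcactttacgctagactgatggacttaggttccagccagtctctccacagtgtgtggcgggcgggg
PRIM1, chr5:22089442-22089641, minus strand: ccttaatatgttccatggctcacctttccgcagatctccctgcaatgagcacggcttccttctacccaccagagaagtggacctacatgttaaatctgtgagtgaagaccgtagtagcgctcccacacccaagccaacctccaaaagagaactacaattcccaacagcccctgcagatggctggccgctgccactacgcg
ECT2, chr13:111248015-111248214, plus strand: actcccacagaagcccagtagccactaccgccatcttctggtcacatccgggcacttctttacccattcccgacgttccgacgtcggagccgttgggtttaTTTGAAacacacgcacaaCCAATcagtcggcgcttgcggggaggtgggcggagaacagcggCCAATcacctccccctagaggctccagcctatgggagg
MAD2L1, chr8:103927158-103927357, plus strand: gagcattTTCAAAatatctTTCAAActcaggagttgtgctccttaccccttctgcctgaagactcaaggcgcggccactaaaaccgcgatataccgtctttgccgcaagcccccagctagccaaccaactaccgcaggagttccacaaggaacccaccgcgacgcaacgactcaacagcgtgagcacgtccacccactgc
RRM1 encodes the large subunit of ribonucleotide reductase, ORC6 a subunit of the origin recognition complex and PRIM1 the primase that starts new DNA strands. ECT2 drives the closing of the contractile ring in cytokinesis, and MAD2L1 is a spindle checkpoint protein. RRM1 held 1 match to each of the motifs, ORC6 2 CCAAT matches, ECT2 1 CHR match and 2 CCAAT matches, MAD2L1 2 CHR matches, and PRIM1 no match in this window. Over the replication list, 6 of 35 promoters held the E2F motif (17.1%), against 950 of 19538 protein-coding genes (4.86%). Over the mitosis list, 10 of 38 held the CHR motif (26.3%) and 18 of 38 CCAAT (47.4%), against 9.41% and 27.7% of all promoters. The replication list had CHR in 8.57% and CCAAT in 42.9%, and the mitosis list had the E2F motif in 13.2%. None of the 3 motifs contains another, and a match describes the letters only.

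Total counts per library were 51713747 to 68247768 on day 14 and 37002909 to 48321350 on day 7, the 3 lowest totals of the series. Levels are given as CPM, counts scaled to a common library size. The 13 mitochondrially encoded genes took 24.5%, 17.8% and 29.7% of the counts on day 14 and 20.2%, 22.5% and 23.8% on day 7. Libraries of the same age correlated across genes at Pearson r of 0.964 to 0.983 on day 14 and 0.983 to 0.989 on day 7, so the older group was the more variable. Day 14 replicate 3 is 1 of 4 libraries of the series that stand apart, set by a level over 1 CPM of ENSSSCG00000018073. The abundant ENSSSCG00000035520 was at 6.59 CPM in this library, against 4884 and 3799 CPM in day 14 replicates 1 and 2. The tissue carried the defining markers of ventricular muscle. The 6 cardiomyocyte markers, which include TNNT2 and MYH7, summed to 52035 to 89852 CPM on day 14 and 50684 to 65949 CPM on day 7. Of the skeletal muscle markers, MYLPF was at 0 in all 6 libraries, MYH4 reached at most 0.0541 CPM and MYH1 was not analysed here. The wider skeletal muscle list had CASQ1 at 9.11 to 14.7 CPM and MYL1 at 0.989 to 3.4 CPM. A value of 0 can also come from reads that were dropped in counting, so it does not show absence.

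No single gene passed the test between the ages in edgeR. The quasi-likelihood test with Benjamini-Hochberg adjustment, fitted to all 21 libraries, called 0 of 15359 genes at an adjusted p under 0.05, a background of 0%, and the smallest adjusted p was 0.117. An unadjusted p under 0.05 was reached by 1357 genes (8.84%), of which 937 were higher on day 14 (6.1%) and 420 were lower (2.73%). These counts were 561 higher and 256 lower without day 14 replicate 3, 635 and 266 without day 7 replicate 2, and 534 and 384 without day 7 replicate 3. The genes lower at this unadjusted p had a median RefSeq transcript length of 2538 bases (362 of 420 with a length), against 3608 bases over all tested genes (12741 of 15359), and 2957 bases without day 14 replicate 3. The part of transcript length in the results was not tested. The other tools gave more calls. DESeq2 called 90 genes (0.586%), 74 higher (0.482%) and 16 lower (0.104%) on day 14. limma's voom with sample weights called 918 (5.98%), 615 higher (4%) and 303 lower (1.97%). Of the 90 DESeq2 genes, 80 were among the voom calls, which is 88.9% of the DESeq2 list and 8.71% of the voom list. The 3 libraries of day 14 lay above the 3 of day 7 for 1552 genes (10.1%) and below them for 1044 (6.8%). The log2 fold change was above 0 for 54.7% of genes and below 0 for 45.2%. Its median over all genes was 0.04, so values below are relative to a centre close to 0. Since edgeR called none, the genes and lists below are described by their values in each library. Members of a list named here beyond its 2 most abundant were chosen after their values were seen.

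Replication genes had lower levels on day 14, and theirs was the list with the most members that separated the ages. Of the 36 tested genes of the replication and S phase list, 35 had a log2 fold change below 0, against 45.2% of all genes, and the list's median was -0.95 against 0.04 over all genes. The libraries did not overlap for 25 of the 36, all lower on day 14 (69.4%, against 6.8% of all genes). The unadjusted edgeR p was under 0.05 for 14 of the 36 (against 2.73% lower in all), and edgeR called none. DESeq2 called RRM1 and voom called 9 of the 36, against 0.104% and 1.97% lower in all genes. The 14 became 5 without day 14 replicate 3 and 23 without day 14 replicate 1. Over all tested genes the count of lower genes moved in the same directions, from 420 to 256 and to 627.

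RRM1 (ENSSSCG00000014791, chr9:6026151-6065211, minus strand) had 60.8, 67.6 and 47.1 CPM on day 14, against 87.4, 125 and 106 CPM on day 7. All libraries of day 14 were below all of day 7, and the log2 fold change for RRM1 was -0.86 (SE 0.21, edgeR adjusted p = 0.242), with a range of -0.99 to -0.73 over the alternatives. PCNA (ENSSSCG00000030642), the sliding clamp of the replication polymerases, had 51.1, 46.7 and 22.9 CPM on day 14, against 79.5, 110 and 81.3 CPM on day 7. PCNA averaged 40.2 ± 15.2 CPM on day 14 and 90.3 ± 17.1 CPM on day 7 (SD, n = 3 each), and its log2 fold change was -1.17 (SE 0.39, edgeR adjusted p = 0.406), with a range of -1.44 to -0.91. All 6 genes of the MCM2 to MCM7 helicase had libraries that did not overlap, with log2 fold changes of -0.61 (MCM7) to -1.60 (MCM3). MCM5 had 27.2, 16.7 and 4.81 CPM on day 14, against 48.4, 35.2 and 32.4 CPM on day 7, and the lowest of the 6 values was in day 14 replicate 3. Cyclin E, the partner of CDK2 at the start of S phase, followed the same order. CCNE2 had 5.13, 3.98 and 1.87 CPM on day 14, against 8.41, 10.3 and 9.05 CPM on day 7 (log2 fold change -1.34, SE 0.49, edgeR adjusted p = 0.448). The exception among the 36 was CDC45, a helicase partner with a log2 fold change of 0.00, which had 45.2, 25.8 and 36.1 CPM on day 14, against 48.3, 25.1 and 33.7 CPM on day 7.

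Mitotic genes stood as low as replication genes in the median but varied more between the day 14 pigs. Of 38 tested genes of the G2 and mitosis list (CCNA2 and AURKA were not analysed here), 37 were below 0 (against 45.2% of all genes) with a median log2 fold change of -1.03. The libraries did not overlap for 19, all lower on day 14 (50%, against 6.8% of all genes). An unadjusted edgeR p under 0.05 was reached by 3 of the 38 (ECT2, MAD2L1 and NUSAP1), against 2.73% lower in all genes. edgeR and DESeq2 called none, and voom called 1 of the 38, ECT2, against 1.97% lower in all genes. ECT2 (ENSSSCG00000035746) had 12.8, 8.11 and 4.92 CPM on day 14, against 14.2, 26.5 and 16.3 CPM on day 7 (log2 fold change -1.14, SE 0.47, edgeR adjusted p = 0.499). MAD2L1 (ENSSSCG00000036256) had 20.1, 13.7 and 6.32 CPM on day 14, against 23.6, 41.2 and 26 CPM on day 7. In both genes day 14 replicate 3 was the lowest library, and no day 14 library reached the lowest day 7 value. TOP2A, the DNA topoisomerase of dividing cells, had 77.2, 47.5 and 17.0 CPM on day 14, against 83.2, 146 and 93.8 CPM on day 7. CCNB1, cyclin B, had 40.9, 18.7 and 6.61 CPM on day 14, against 36.0, 66.9 and 43.5 CPM on day 7, so that day 14 replicate 1 lay within the younger range. MKI67, a protein of cycling nuclei, overlapped as well, with 87.9, 37.4 and 28.8 CPM on day 14 and 74.4, 50.5 and 173 CPM on day 7. CDC25B, a phosphatase that activates CDK1, was the 1 member above 0, at 55.4, 46.6 and 51.2 CPM on day 14 and 39.8, 50.4 and 43.2 CPM on day 7.

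**Figure D1:**
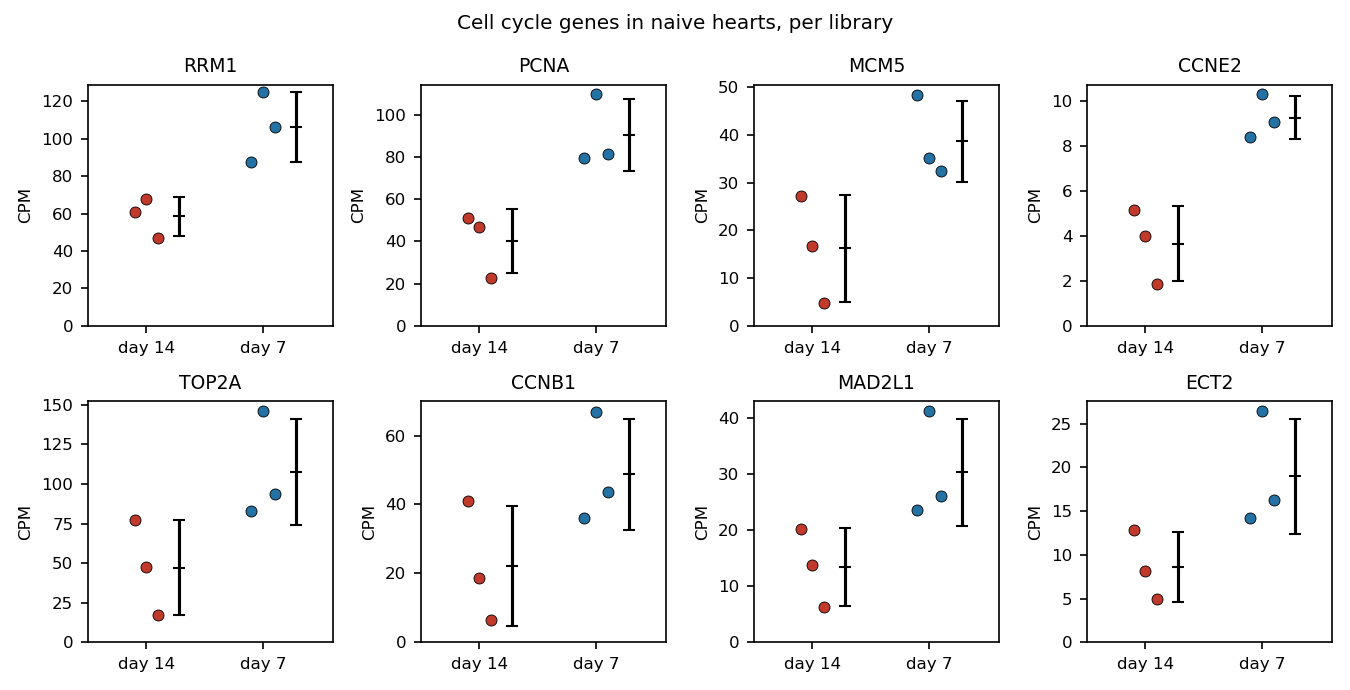
CPM of 4 replication genes (upper row) and 4 mitosis genes (lower row) in naive hearts, day 14 on the left and day 7 on the right of each panel, with 1 point per pig and the mean ± SD (n = 3) beside the points. RRM1, PCNA, MCM5, CCNE2, TOP2A, MAD2L1 and ECT2 show no overlap between the ages, and for CCNB1 the highest day 14 value of 40.9 CPM lies above the lowest day 7 value of 36.0 CPM.

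The list medians were smaller in size without day 14 replicate 3, with the same direction. Without that library the median was -0.70 for replication and -0.71 for mitosis, and 35 of 36 and 36 of 38 genes were still below 0. An unadjusted p under 0.05 was left for 5 and 0 genes, against 256 lower of all 15346 genes tested in that fit. Over the alternatives, which left out each library in turn or changed the scaling, filter or test, the medians ran from -1.31 to -0.70 for replication and from -1.74 to -0.71 for mitosis. The lowest medians were those without day 14 replicate 1. The mean log2(CPM + 0.5) over the replication list was 3.57, 3.12 and 2.14 in the day 14 libraries and 3.93, 4.07 and 3.81 in the day 7 libraries. Over the mitosis list it was 4.50, 3.71 and 2.43 on day 14 and 4.54, 5.09 and 4.59 on day 7. Both list levels of day 14 thus lay below those of day 7 in every library, narrowly so for mitosis, where the nearest libraries were at 4.50 on day 14 and 4.54 on day 7. Day 14 replicate 3 also had the lowest haemoglobin (HBB 32.3 CPM, against 263 and 370 in the other day 14 hearts) and the lowest fibroblast marker sum (351 CPM, against a highest of 881 on day 14), and the part of its tissue makeup in the result was not tested.

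At other ages the naive hearts had replication list levels of 3.80 and 3.36 on day 1, 3.39 and 3.50 on day 3, and 3.07, 2.65 and 3.40 on day 28. The day 7 libraries were therefore above every other naive library, and those of day 14 spanned the range of day 28. For the mitosis list the values were 4.22 and 3.51 on day 1, 3.65 and 4.19 on day 3, and 3.65, 3.69 and 2.90 on day 28. RRM1 averaged 60.2 ± 0.466 CPM on day 1 (n = 2), 76.9 ± 2.97 on day 3 (n = 2), 106 ± 19 on day 7, 58.5 ± 10.5 on day 14 and 65.3 ± 8.44 on day 28 (SD, n = 3 for the last ages). Every day 7 library was above all libraries of the other naive ages, while the ranges of day 1, day 14 and day 28 overlapped. The replication list's median log2 fold change was 0.31 for day 7 over day 1, -0.95 for day 14 over day 7 and -0.03 for day 28 over day 14. These comparisons share the day 7 or the day 14 libraries, so they are not independent.

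**Figure D2:**
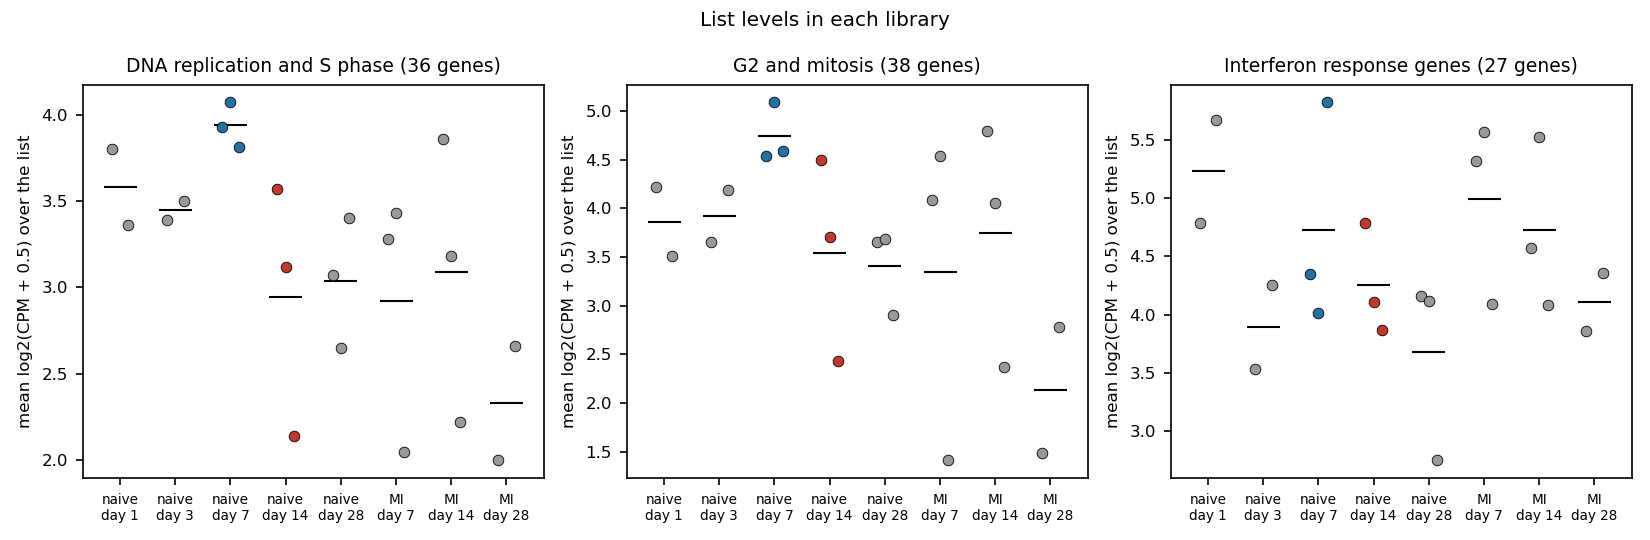
Mean log2(CPM + 0.5) over the replication, mitosis and interferon lists in each of the 21 libraries, by group, with a bar at each group mean. Replication levels are 2.14 to 3.57 in naive hearts of day 14 (red) and 3.81 to 4.07 on day 7 (blue), and on day 7 the interferon level of 5.82 in 1 library is the highest of all 21 libraries.

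Regulators of the G1 phase had no common direction, with 14 of 23 above 0 and a median of 0.08 (range -0.02 to 0.16 over the alternatives). Some single members separated the ages. GADD45G (ENSSSCG00000035249, chr14:1166000-1167538), a stress-induced inhibitor of CDK1, had 59.8, 84.3 and 85.5 CPM on day 14, against 44.2, 37.1 and 26.5 CPM on day 7. It averaged 76.5 ± 14.5 CPM on day 14 and 35.9 ± 8.87 CPM on day 7 (SD, n = 3 each). The log2 fold change of GADD45G was 1.09 (SE 0.27, edgeR adjusted p = 0.242), and DESeq2 and voom called it. CDK6, a kinase of the cyclin D complex, was higher at 23.5, 24.6 and 30.0 CPM on day 14, against 15.7, 12.7 and 9.91 CPM on day 7. CCND1, cyclin D1, had 129, 176 and 148 CPM on day 14, against 94.2, 106 and 98.5 CPM on day 7. CDK2, which drives S phase entry, was in the opposite direction at 27.2, 22.5 and 13.0 CPM on day 14, against 34.6, 40.7 and 34.4 CPM on day 7 (CDK2 log2 fold change -0.81, SE 0.27, edgeR adjusted p = 0.404). CDKN1C, an imprinted CDK inhibitor, had 31.6, 22.8 and 23.7 CPM on day 14, against 17.2, 10.7 and 14.1 CPM on day 7. These 5 genes did not overlap between the ages, and voom called all but CDKN1C. Over the G1 list, 5 of 23 were higher without overlap (21.7%, against 10.1% of all genes) and 2 were lower (8.7%, against 6.8%). Of its 23 genes voom called 3 higher and 1 lower, against 4% and 1.97% of all genes.

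None of the 10 genes with the smallest p among those higher on day 14 was in the replication, mitosis or G1 list. ZNF251, a zinc finger protein, had 47.7, 40.5 and 47.2 CPM on day 14, against 20.5, 22.0 and 19.6 CPM on day 7. It averaged 45.1 ± 4.04 CPM on day 14 and 20.7 ± 1.21 CPM on day 7 (SD, n = 3 each). Its log2 fold change was 1.12 (SE 0.21, edgeR adjusted p = 0.117), with the smallest p of the genes that have a symbol. SNRNP70 (ENSSSCG00000023792), the U1 snRNP protein that binds 5′ splice sites, had 198, 114 and 125 CPM on day 14, against 57.6, 42.7 and 48.0 CPM on day 7 (log2 fold change 1.56, SE 0.31, edgeR adjusted p = 0.142). Day 7 was the low naive age for SNRNP70, which averaged 107 CPM on day 1, 138 on day 3, 49.4 on day 7 and 149 on day 28. ALS2CL, a regulator of Rab5 in endosomes, had 70.0, 39.3 and 63.2 CPM on day 14, against 18.1, 13.0 and 17.9 CPM on day 7. The others of the 10 were MAP3K2, PHPT1, RGL2, DENND6B, CAMSAP2, ATP8A1 and the precursor gene ssc-mir-378-1, which stayed under 1 CPM. Reads of that precursor and of an overlapping transcript cannot be told apart here, since no strand setting is stated. All 10 separated the ages and had log2 fold changes of 0.76 (CAMSAP2) to 3.61 (PHPT1, 4.50, 1.98 and 2.16 CPM on day 14, against 0.514, 0.0247 and 0.171 CPM on day 7). The 10 were picked by p in these same libraries, so their separation is no further support.

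More genes were called by both DESeq2 and voom with a mean of at least 5 CPM, a group chosen after their values were seen. LENG8 and ARGLU1, both linked to mRNA processing, were in it. LENG8 had 278, 138 and 156 CPM on day 14, against 90.1, 39.4 and 63.4 CPM on day 7. ARGLU1 had 79.6, 55.7 and 62.2 CPM on day 14, against 38.1, 37.8 and 40.0 CPM on day 7. KMT2A, a histone H3 methyltransferase, had 27.8, 26.4 and 54.8 CPM on day 14, against 16.1, 16.5 and 14.3 CPM on day 7, with its highest value in day 14 replicate 3. OGT, which adds N-acetylglucosamine to proteins of nucleus and cytosol, had 113, 97.6 and 118 CPM on day 14, against 64.2, 65.6 and 68.2 CPM on day 7 (log2 fold change 0.73, SE 0.18, edgeR adjusted p = 0.262). MDM4, which restrains p53, had 15.7, 13.2 and 20.3 CPM on day 14, against 8.55, 8.86 and 8.15 CPM on day 7. LAD1, an anchoring filament protein, had 455, 554 and 449 CPM on day 14, against 239, 172 and 224 CPM on day 7. In the means of the naive ages, LENG8 and LAD1 were lowest on day 7. LENG8 averaged 135 CPM on day 1, 163 on day 3, 64.3 on day 7 and 179 on day 28. LAD1 averaged 465 CPM on day 1, 475 on day 3, 211 on day 7 and 448 on day 28. LAD1 and TNNT2, the cardiac troponin T gene, are both on chromosome 10 (LAD1 at chr10:23767204-23779743, TNNT2 at chr10:23749528-23759696).

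CLU (ENSSSCG00000009668, chr14:11336585-11352569), an extracellular chaperone that also restrains complement, is an abundant gene with a wide gap between the ages. It had 475, 515 and 884 CPM on day 14, against 101, 115 and 66.4 CPM on day 7. Its log2 fold change was 2.73 (SE 0.72, edgeR adjusted p = 0.272), with a range of 2.35 to 2.90 over the alternatives. Day 7 was the low age for CLU: its lowest and highest values were 129 and 248 CPM on day 1, 118 and 560 on day 3, and 145 and 507 on day 28. The 14 tested complement genes, CLU included, had a median log2 fold change of 0.09, which ran from -0.11 to 0.33 over the alternatives.

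**Figure D3:**
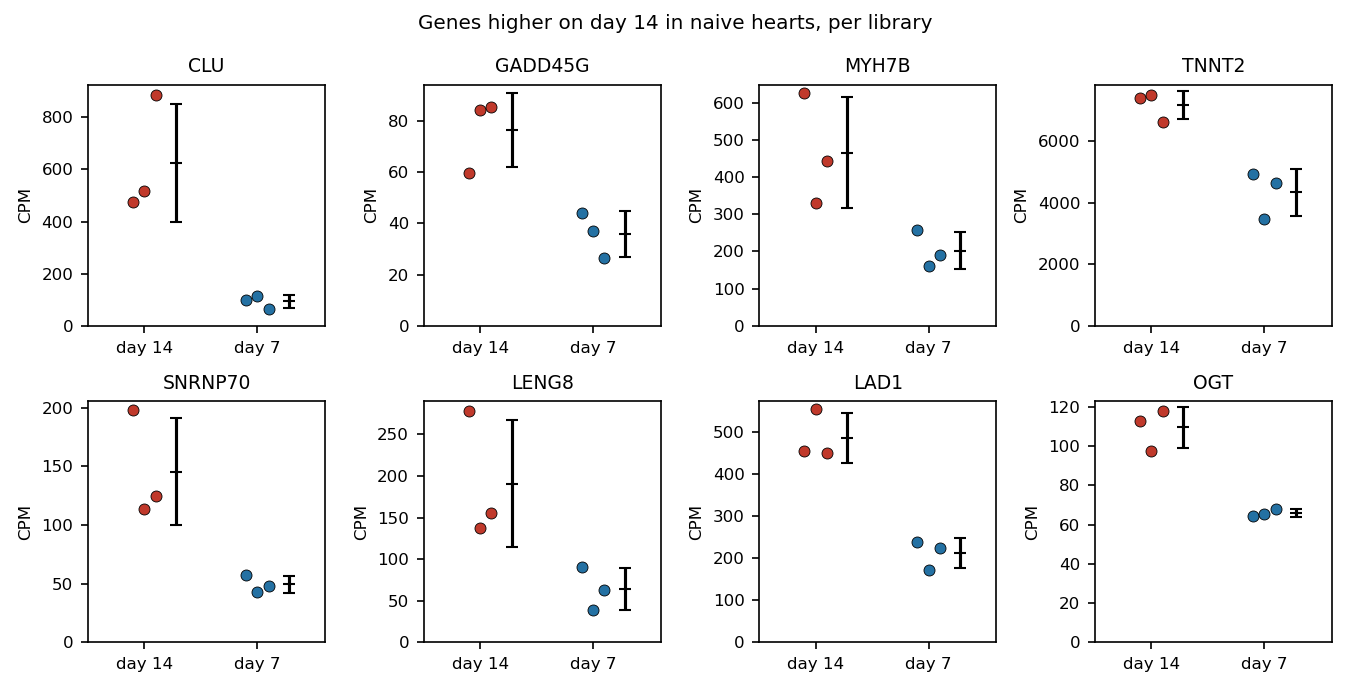
CPM of 8 genes that were higher on day 14 in naive hearts, day 14 on the left and day 7 on the right of each panel, with 1 point per pig and the mean ± SD (n = 3) beside the points. The genes were chosen after their values were seen. None of the 8 overlaps between the ages, and the gap for CLU lies between 475 CPM, the lowest of day 14, and 115 CPM, the highest of day 7.

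Contractile genes differed in both directions. The thin filament list had a median log2 fold change of 0.41 with 12 of 16 above 0. Without overlap, 4 of its genes were higher on day 14 (25%, against 10.1% of all genes) and 2 lower (12.5%, against 6.8%). Without day 7 replicate 3 the median was 0.19, with 12 of 16 still above 0. TNNT2, cardiac troponin T, had 7373, 7471 and 6626 CPM on day 14, against 4911, 3461 and 4620 CPM on day 7. Its log2 fold change was 0.72 (SE 0.25, edgeR adjusted p = 0.413), and voom called it. NEBL, the nebulin of the heart, had 1911, 1886 and 2534 CPM on day 14, against 1329, 1458 and 1356 CPM on day 7. TPM2, beta-tropomyosin, had 1952, 1821 and 1919 CPM on day 14, against 1278, 864 and 1312 CPM on day 7. ACTC1, cardiac actin, was lower, at 10135, 10947 and 9819 CPM on day 14, against 12259, 16472 and 14623 CPM on day 7. The fetal slow troponin I gene TNNI1 had 366, 388 and 101 CPM on day 14, against 650, 775 and 692 CPM on day 7. The adult gene TNNI3 is listed at 0 at both ages. Its reads could have been dropped in counting, so the 0 does not show that TNNI3 was absent, and no isoform exchange can be read from it. MYH7B, a slow myosin heavy chain, had 625, 329 and 443 CPM on day 14, against 257, 160 and 190 CPM on day 7, and DESeq2 and voom called it (log2 fold change 1.20, SE 0.31, edgeR adjusted p = 0.265). The main ventricular myosin MYH7 overlapped, at 21966, 39263 and 60020 CPM on day 14 and 39626, 27759 and 32047 CPM on day 7. ANKRD1, a stretch-responsive protein of the Z disc and a YAP target, had 2942, 2689 and 2635 CPM on day 14, against 1463, 1619 and 1350 CPM on day 7.

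The lists of energy metabolism had medians close to 0 with all libraries, and several moved without day 14 replicate 3. Fatty acid uptake and oxidation had a median log2 fold change of 0.03 over 31 genes, and -0.15 with 25 below 0 without that library. Glycolysis had -0.01 over 30 genes, and -0.14 with 24 below 0 without it. The citric acid cycle list had 23 of 30 below 0 with a median of -0.10, and 6 of its genes did not overlap and were lower on day 14 (20%, against 6.8% of all genes). Its median was -0.30 with 29 of 30 below 0 without day 14 replicate 3, and -0.02 with 16 of 30 below 0 without day 14 replicate 1. IDH2, the mitochondrial NADP-dependent isocitrate dehydrogenase, had 757, 956 and 817 CPM on day 14, against 1329, 1000 and 1139 CPM on day 7. The nuclear genes of complex I had a median of -0.09 over 33 genes with 0 that separated the ages, and -0.02 without day 14 replicate 3. For the 13 genes of the mitochondrial genome the median was 0.28 with all libraries and -0.18 without day 14 replicate 3, which had 19636 CPM of ND1, against 3809 and 3215 in the other day 14 hearts. Antioxidant enzymes had 6 of 23 genes lower on day 14 without overlap (26.1%, against 6.8% of all genes), among them MGST1, a microsomal glutathione transferase, at 59.9, 93.3 and 50.4 CPM on day 14, against 108, 168 and 95.5 CPM on day 7. The list's median was -0.19 (range -0.26 to -0.06 over the alternatives), with 7 genes above 0. Its most abundant member SOD2 was among these 7, at 451, 769 and 936 CPM on day 14 and 605, 447 and 508 CPM on day 7, and voom called it higher. In the iron list, FTL, the ferritin light chain, had 72.3, 72.0 and 67.6 CPM on day 14, against 49.1, 37.7 and 47.9 CPM on day 7, and BLVRB, which acts on biliverdin in haem breakdown, had 8.58, 7.55 and 6.75 CPM on day 14, against 14.2, 10.4 and 11.8 CPM on day 7. The part of the iron given on day 7 was not tested.

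Growth and vessel genes held single members that separated the ages. In the growth factor list, 4 of 29 were higher without overlap (13.8%, against 10.1% of all genes) and 2 lower (6.9%, against 6.8%). That list was thus near the shares of all genes. In the IGF list, 3 of 17 were higher without overlap (17.6%) and 1 was lower (5.88%). VEGFA (ENSSSCG00000001695), the main growth factor of the endothelium, had 150, 141 and 213 CPM on day 14, against 89.2, 69.3 and 79.8 CPM on day 7. It averaged 168 ± 39.4 CPM on day 14 and 79.5 ± 9.96 CPM on day 7 (SD, n = 3 each). For VEGFA the log2 fold change was 1.08 (SE 0.31, edgeR adjusted p = 0.296), and voom called it. IGFBP5, which binds insulin-like growth factors, had 487, 483 and 567 CPM on day 14, against 290, 287 and 320 CPM on day 7. BMP7, a ligand of the BMP pathway, had 13.9, 6.62 and 0.562 CPM on day 14, against 28.6, 37.3 and 41.0 CPM on day 7. Of 26 endothelial genes, 21 were above 0 with a median of 0.26, and 6 were higher without overlap (23.1%, against 10.1% of all genes). This median rested on single libraries: it was 0.04 with 14 of 26 above 0 without day 14 replicate 1, and 0.08 with 17 above 0 without day 7 replicate 2. The mean log2(CPM + 0.5) over the endothelial list was 5.96, 5.60 and 5.57 on day 14 and 5.63, 5.27 and 5.61 on day 7, so only day 14 replicate 1 lay above all day 7 libraries. PECAM1, the adhesion molecule of endothelial cells, had 457, 358 and 349 CPM on day 14, against 286, 275 and 324 CPM on day 7, and the VEGF receptor KDR had 205, 176 and 162 CPM on day 14, against 135, 139 and 153 CPM on day 7. CA4, a carbonic anhydrase of capillaries, pointed the other way with overlap, at 37, 22.5 and 23.6 CPM on day 14 and 49.5, 34.5 and 45.9 CPM on day 7. Smooth muscle and pericyte genes had 5 of 16 higher without overlap (31.2%, against 10.1% of all genes) and a median of 0.29, or 0.14 without day 14 replicate 1. They included CALD1, an actin-binding caldesmon, at 196, 148 and 151 CPM on day 14, against 115, 131 and 135 CPM on day 7. Of the 16 genes, 12 were above 0 and 4 below, and voom called 2 higher and 1 lower (against 4% and 1.97% of all genes). The 2 most abundant members overlapped between the ages. DES averaged 5000 CPM on day 14 and 5651 CPM on day 7, and RGS5 636 CPM on day 14 and 520 CPM on day 7. Immediate early genes had 6 of 22 higher without overlap (27.3%) and the Hippo list 5 of 21 (23.8%), both against 10.1% of all genes. The immediate early median was 0.32, with a range of 0.20 to 0.40 over the alternatives. The Hippo median was 0.34, the highest of its range, and was 0.19 without day 14 replicate 3 and 0.21 without day 7 replicate 2 or 3.

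Of the 10 genes with the smallest p among those lower on day 14, 6 were above 5 CPM. AHCY, the hydrolase of S-adenosylhomocysteine, had 42.0, 55.6 and 56.9 CPM on day 14, against 85.0, 91.4 and 86.4 CPM on day 7 (log2 fold change -0.77, SE 0.19, edgeR adjusted p = 0.262). RIOX2, a ribosomal oxygenase, had 95.5, 117 and 99.0 CPM on day 14, against 132, 240 and 207 CPM on day 7. MEST, an imprinted gene of fetal growth, had 5.69, 6.34 and 5.19 CPM on day 14, against 11.7, 22.5 and 12.5 CPM on day 7 (log2 fold change -1.44, SE 0.39, edgeR adjusted p = 0.280). TMEM254 had 14.1, 12.1 and 9.54 CPM on day 14, against 22.0, 34.4 and 28.4 CPM on day 7, and C15orf41 had 8.73, 8.01 and 6.95 CPM on day 14, against 12.7, 18.1 and 14.4 CPM on day 7. With RRM1, these 6 genes separated the ages and were called by DESeq2 and voom. Separation and calls come from the same libraries that picked the genes, so they are no further support. MARCH10, CLSTN2, PLSCR5 and SLC22A7 completed the 10, each with means under 1 CPM at both ages.

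Genes that mark other cell types or an immune response varied with single libraries. The interferon list had 24 of 27 below 0 and a median log2 fold change of -0.70, but 0 of its members separated the ages. The list difference rested on day 7 replicate 3. ISG15, an interferon-induced ubiquitin-like protein, had 23.4, 15.9 and 4.68 CPM on day 14, against 17.5, 10.2 and 117 CPM on day 7. Without that library the median was 0.05, with 12 of 27 below 0. Lymphocyte markers had 20 of 23 above 0 and a median of 0.65 at low levels. The direction of this median turned with the tool, to -0.16 with voom, and it was 0.35 with 14 of 23 above 0 without day 14 replicate 1 and 0.40 without day 14 replicate 3. CD79A, a part of the B cell receptor, had 2.41, 1.00 and 1.08 CPM on day 14, against 0.325, 0.544 and 0.514 CPM on day 7. The 4 lymphocyte markers summed to 3.63 to 8.97 CPM on day 14 and 2.37 to 3.17 CPM on day 7. The atrial markers pointed in different directions. MYL4, the atrial and fetal light chain, had 36.5, 19.6 and 25.2 CPM on day 14, against 190, 339 and 79.2 CPM on day 7, and NPPA, the atrial natriuretic peptide, had 5.49, 18 and 38.4 CPM on day 14 and 34.7, 313 and 24.3 CPM on day 7. NR2F2, a regulator of atrial identity that vessel cells also express, had 40.1, 30.5 and 29.8 CPM on day 14, against 26.6, 22.2 and 25.6 CPM on day 7. The 3 atrial markers in the table summed to 68.2 to 93.3 CPM on day 14 and 129 to 675 CPM on day 7, and MYL7 was not analysed here. The epicardial list had a median of -1.45 over 9 genes, of which 5 were under 1 CPM in every day 14 library. KRT8, a keratin of simple epithelia, had 24.5, 39.3 and 9.69 CPM on day 14, against 54.8, 84.8 and 61.2 CPM on day 7. ALDH1A2 of the same list overlapped, at 50.5, 31.5 and 19.6 CPM on day 14 and 39.2, 32.8 and 40.9 CPM on day 7. The 2 epicardial markers in the table also overlapped, with sums of 5.28 to 7.24 CPM on day 14 and 5.12 to 10.8 CPM on day 7. Markers of fibroblasts summed to 351 to 881 CPM on day 14 and 713 to 925 CPM on day 7, those of smooth muscle to 187 to 353 CPM on day 14 and 210 to 263 CPM on day 7, and those of macrophages to 185 to 244 CPM on day 14 and 200 to 226 CPM on day 7. The part of these cell types in the other results was not tested.

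**Figure D4:**
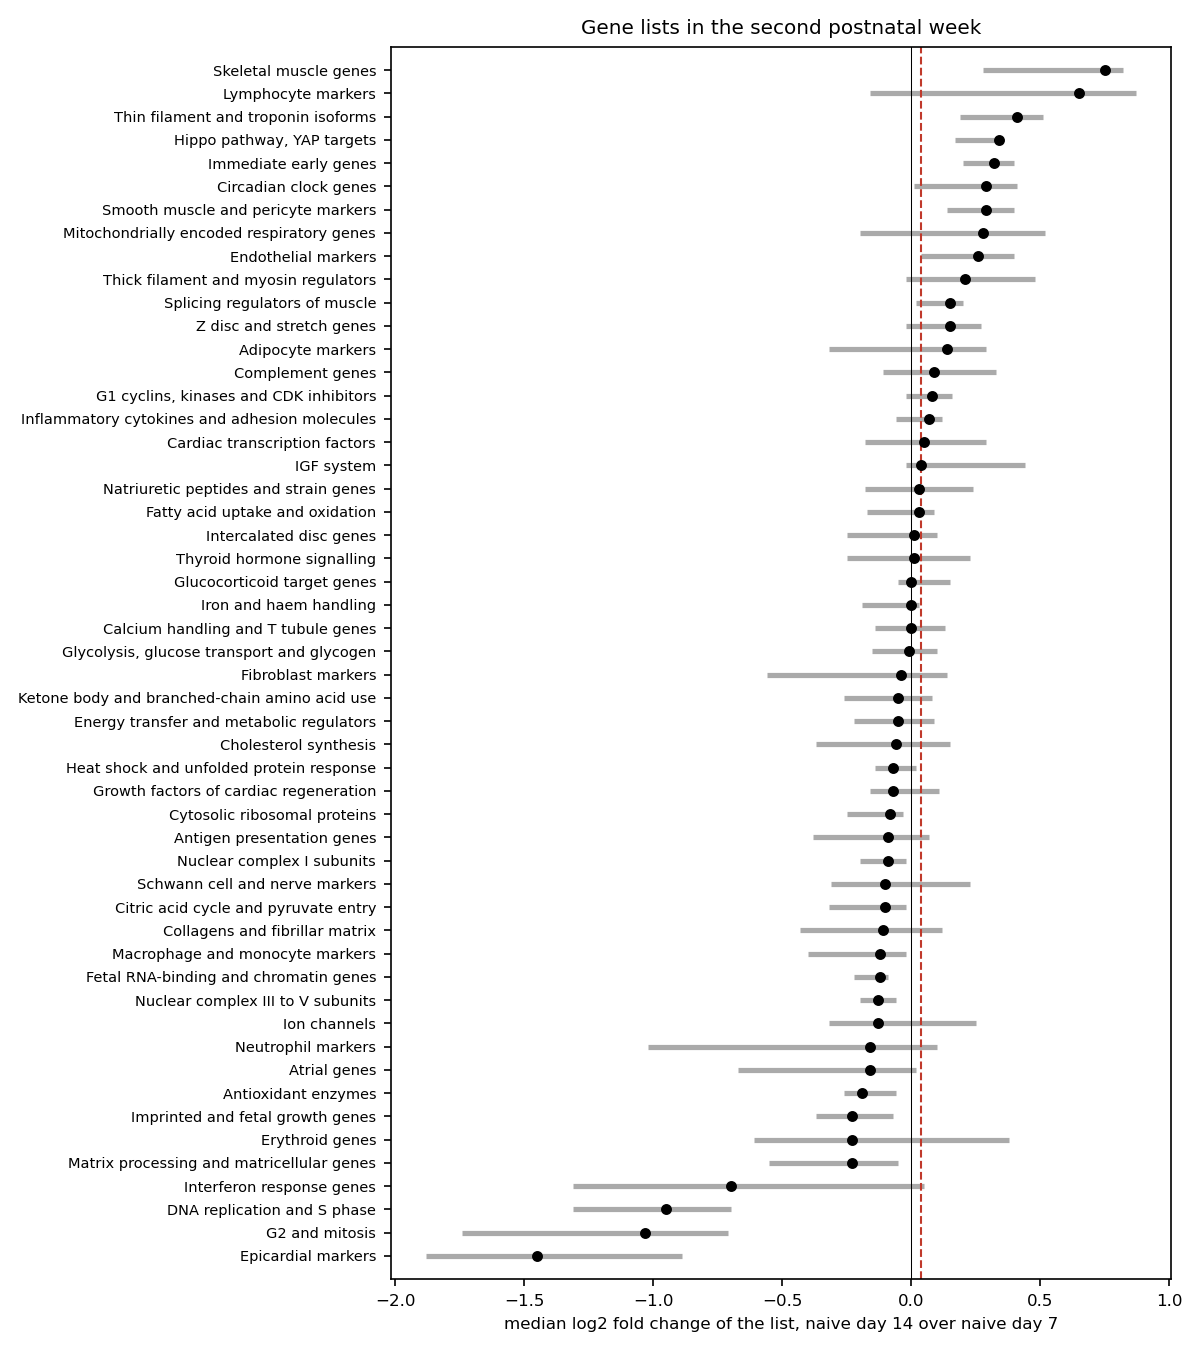
Median log2 fold change of each of the 52 gene lists, naive day 14 over naive day 7 (black points), with grey bars for the range over the alternative settings and a red dashed line at 0.04, the median of all genes. The replication list (-0.95) and the mitosis list (-1.03) keep their whole range below 0, and the interferon range reaches 0.05. Other lists also stay below 0, among them the epicardial list (-1.45, range -1.88 to -0.89) and the citric acid cycle list (-0.10, range -0.32 to -0.02).

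The same interval in infarcted hearts gives an independent set of libraries. MI hearts of day 14 against MI hearts of day 7 had 0 edgeR calls (0%), with 625 genes at an unadjusted p under 0.05 (4.07%). The 937 genes higher in naive hearts had a median log2 fold change of -0.09 in MI hearts, against -0.01 over all genes, and the 420 lower genes had 0.02. The replication list had a median of 0.16 in MI hearts, with list levels of 3.86, 3.18 and 2.22 on day 14 and 3.28, 3.43 and 2.05 on day 7. The levels of the MI ages overlapped, those of the naive ages did not, and the MI day 7 hearts lay below the naive day 7 hearts. In the test of the difference between the changes, naive minus MI, all 36 replication genes were below 0 with a median of -1.23, but only 3 had an unadjusted edgeR p under 0.05 (against 2.49% below 0 in all genes) and none was called. Without the 4 libraries that stand apart, which include MI day 7 replicate 3 (2.05), the median was -0.61 with 35 of 36 below 0, and without MI day 14 replicate 1 it was -0.57.

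edgeR called 1 of 15359 genes (0.00651%) in the difference naive minus MI, with 1086 (7.07%) at an unadjusted p under 0.05, 703 of them above 0 (4.58%). ENSSSCG00000035617, which has no symbol in the tables used here, had 29.6, 44.2 and 57.2 CPM in naive hearts on day 14, against 8.87, 9.67 and 13.7 CPM in naive hearts on day 7. In MI hearts it had 14.0, 15.2 and 15.4 CPM on day 14, against 62.4, 33.6 and 50.2 CPM on day 7. The changes were of opposite direction without overlap in either condition, and their difference was 3.74 on the log2 scale (SE 0.52, edgeR adjusted p = 0.0236). It did not pass in 10 of the 12 fits that left out 1 library, nor with a term for the 4 libraries (adjusted p = 0.0523) or without them (adjusted p = 0.0505, where a different gene was called), and the adjusted p ranged from 2.96e-08 to 0.18 over all alternatives. At other naive ages its values were 34.5 and 56.9 CPM on day 1, 27.3 and 56.0 on day 3 and 43.5 to 57.8 on day 28, and it was at 5.44 and 14.5 CPM in MI hearts of day 28. GADD45G had the third smallest p of this test (1.93, SE 0.37, edgeR adjusted p = 0.412). In MI hearts it had 21 to 33.0 CPM on day 14 and 38.2 to 56.5 CPM on day 7, the opposite order to naive hearts. DESeq2 called 27 genes in this difference and voom 5, both with GADD45G among them.

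**Figure D5:**
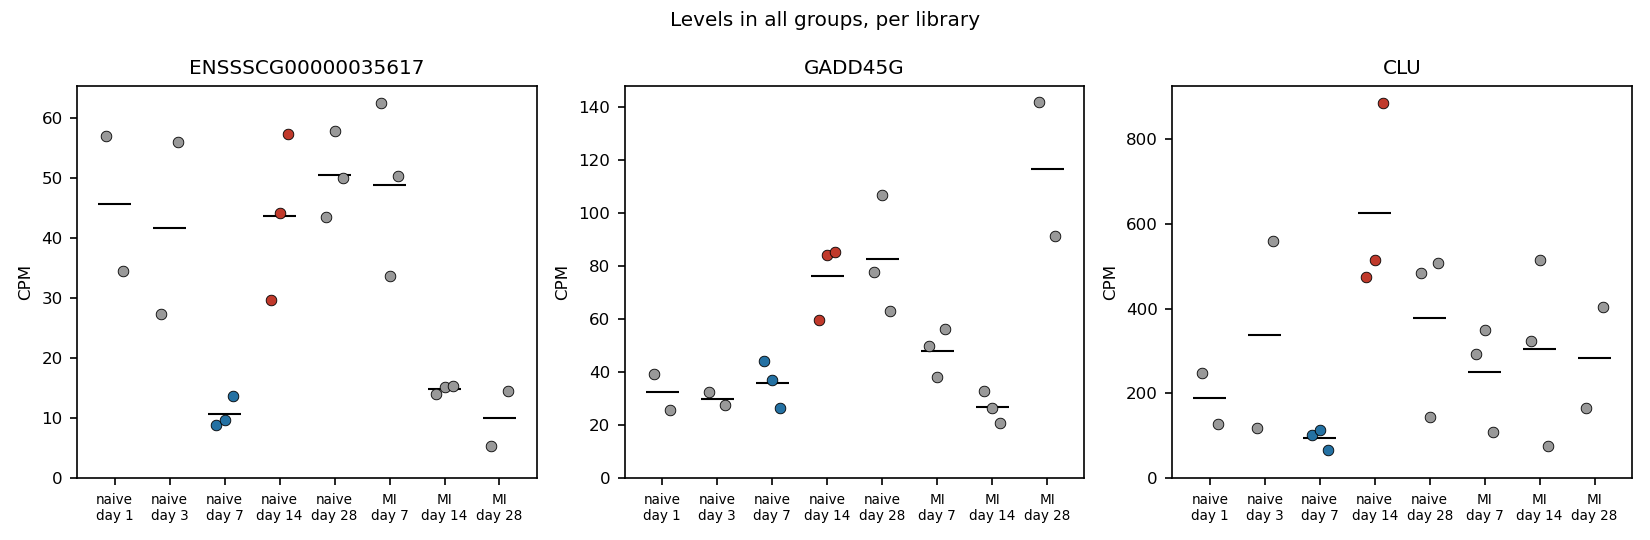
CPM of ENSSSCG00000035617, GADD45G and CLU in each of the 21 libraries, by group, with a bar at each group mean and the naive groups of day 14 in red and day 7 in blue. ENSSSCG00000035617 is at 29.6 to 57.2 CPM in naive hearts of day 14 and 8.87 to 13.7 CPM on day 7, while MI hearts are at 14.0 to 15.4 CPM on day 14 and 33.6 to 62.4 CPM on day 7.

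The second week was also set against the following 2 weeks in naive hearts, with other pigs at each age. The 2 intervals share the day 14 libraries. Naive hearts of day 28 against day 14 had 0 edgeR calls and 177 genes at an unadjusted p under 0.05 (1.15%), and the test of the difference between the intervals called 0 genes by edgeR, DESeq2 and voom, with 603 at an unadjusted p under 0.05 (3.93%). Several genes that were higher on day 14 stayed near that level. GADD45G averaged 82.6 ± 22.1 CPM on day 28 and 76.5 ± 14.5 CPM on day 14, and MYH7B averaged 463 ± 147 CPM on day 28 and 466 ± 150 CPM on day 14 (SD, n = 3 each). MYH7B was also at 353 ± 59.8 CPM on day 1 and 326 ± 68.0 CPM on day 3 (SD, n = 2 each), against 202 ± 49.6 CPM on day 7, so its day 7 level was the lowest of the ages. GADD45G in contrast was at 32.5 ± 9.65 CPM on day 1 and 30.1 ± 3.61 on day 3 (SD, n = 2 each), close to its 35.9 ± 8.87 CPM on day 7. For day 7 over day 1, the 937 genes higher on day 14 had a median log2 fold change of -0.46. The 420 genes lower on day 14 had 0.40, against -0.01 over all genes. These medians share the day 7 libraries with the comparison that picked the genes, so they are not independent of it. Age intervals differ in length, and the day 1 and day 3 groups have 2 libraries each.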

How the data were processed

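The submitters' processing notes name Trim Galore, STAR 2.5.2, HTSeq 0.6.1, DESeq2 and the build Sscrofa11.1, without the settings used. The authors deposited raw counts for 25880 genes in 21 libraries. No annotation release or strand setting is stated, so overlapping and near-identical genes could have been split or dropped. Genes were kept with filterByExpr, scaled by TMM and fitted with edgeR 4.0.16 in R 4.3.3 (1 mean per group, glmQLFit robust, 13 residual degrees of freedom). A call is a quasi-likelihood adjusted p under 0.05, two-sided. DESeq2 1.42.0 and limma 3.58.1 were alternatives. Level is CPM with TMM scaling, which corrects for depth and not for length. The scripts were tested on simulated data. Symbols came from the table for 15640 genes and by ID for 877. The 52 lists and the members were chosen with earlier results of these data known, and some lists overlap. The rule named called genes first, and, as none was called, the 10 smallest p per direction among genes with a symbol and the 2 most abundant members of each list. Others were chosen after their values were seen. Replicate numbers follow accession order. A p-value sets a difference against the spread between pigs within groups, which the main fit estimates over all 21 libraries in 8 groups, MI hearts included. The length check of the higher genes was void, since 738 of 937 (78.8%) had a RefSeq length, too few for the share set for it.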

Additional observations from a re-analysis of the deposited data

Results flagged for a closer look

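ENSSSCG00000035617 differed between day 14 and day 7 in opposite directions in naive and in MI hearts. The difference between these changes was itself tested and was 3.74 on the log2 scale (SE 0.52, edgeR adjusted p = 0.0236; 2.96e-08 to 0.18 over the alternatives). Neither change alone passed edgeR's adjusted test (0.117 in naive and 0.404 in MI hearts). All 3 naive hearts of day 14 were above all 3 of day 7, and all 3 MI hearts of day 14 were below all 3 of day 7. Groups of 3 are too small for a check of single libraries that lie far from the rest.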

How the results depend on the processing

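For naive day 14 against day 7, edgeR called 0 genes with RLE scaling, without mitochondrially encoded genes, with either other filter, with the term for 4 libraries or without them, in the 6 libraries alone and without any 1 library. The genes at an unadjusted p under 0.05 were 1357 with all libraries, 817 without naive day 14 replicate 3 and 901 without naive day 7 replicate 2. Without the 4 libraries they were 1090. DESeq2 called 90 genes and voom 918. For naive minus MI, edgeR's 1 call became 27 with DESeq2, 5 with voom and 0 with the term for 4 libraries, and 0 to 1 when 1 library was left out. The change against days 14 to 28 had 0 calls in all alternatives. The cause of these differences was not tested. Of 3000 alternative fits of single genes, 133 gained a call (with DESeq2 or voom), 32 moved by more than the spread between pigs and 0 reversed. Of the list medians, 69 moved and 710 did not. No paired analysis was possible because the replicate numbers follow accession order and the labels name no shared litter, batch or day. Levels under 1 CPM rest on few counts. The 3 day 7 libraries are the shallowest and 3 pigs per age limit the precision.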
